A study of Mus musculus with 62 samples.

Results

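RNA of the tibialis anterior, the shin muscle that lifts the foot, was profiled 2 to 8 weeks after injection in mice not given cachectic cells. The values used here hold no measure of wasting. The libraries described here are the 40 of 62 in the series whose names mark muscle without cachexia: 20 from mice injected with melanoma cells called non-cachectic (NCAC) and 20 from mock-injected mice (Con). Each treatment held 5 libraries at each of 4 time points, 2, 4, 6 and 8 weeks after injection, and the remaining 22 libraries came from mice injected with cachectic melanoma cells (CAC). The libraries were taken by treatment and week as labelled. The labels give female mice aged 2 months at every week, without saying whether that age was at injection or at collection, and the extraction and library protocol was the same for all groups. The study's design text names NCI Ath/nude mice, a strain without a thymus, whereas the sample labels name C57BL6/J, so the strain is given here as unsettled. None of the 13 T and NK cell markers listed passed the filter on low values, and Cd3e, a subunit of the T cell receptor complex, was listed at 0 in 34 of the 40 libraries. The 13 markers summed to 0.104 to 1.52 TPM in NCAC and 0.117 to 7.84 TPM in Con libraries, and the highest sum stood in 1 Con library of week 8, whose group had a median of 0.42 TPM.

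Fibroblasts lay down collagens and other matrix around the fibres, most of all while the muscle grows, and pericytes wrap and steady its capillaries. Fibres also respond within hours to stretch, activity and feeding through genes of the Z-disc, the anchor of the contractile filaments, and through genes of fat oxidation. A time series of wasting is read against controls taken at the same weeks, so the size of the drift in those controls is part of every comparison over weeks. In these data any effect of time since injection, of age and of the date of collection cannot be told apart, and the labels give no sequencing batch.

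Few genes changed between weeks 2 and 8 by the test used. A straight line over week was fitted to log2(TPM + 1) of every gene, where TPM is a transcript's share of the library scaled to a fixed total, with treatment as a block. The coefficient is the modelled change, week 8 minus week 2. Of the 10848 genes that averaged 1 TPM or more in these 40 libraries, 6 fell and 0 rose at a Benjamini-Hochberg adjusted p under 0.05 (limma), which is 0.0553% of the genes tested. The 6 genes were Cd200, Rgs5, Dpysl2, Prrg3, Klhl23 and Lrrc8c. At an unadjusted p under 0.05 the count was 906 genes, 8.35% of those tested, with 174 higher (1.6%) and 732 lower (6.75%). The median change of all genes was -0.02, with quartiles of -0.08 and 0.03, and the median SE was 0.0839. The 95% interval of the change lay within -1 to 1 for 98.6% of the genes and within -0.5 to 0.5 for 92.3% of them. The week line held a median of 1.23% of a gene's variance, and its highest share was 48.0%, for Cd200. When the libraries were rescaled by median-of-ratios size factors, which moved the median of all genes by 0.04, 23 genes (0.212%) passed, 10 higher and 13 lower, so that 56.5% of the called genes were lower, against 100% before rescaling.

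**Figure D1:**
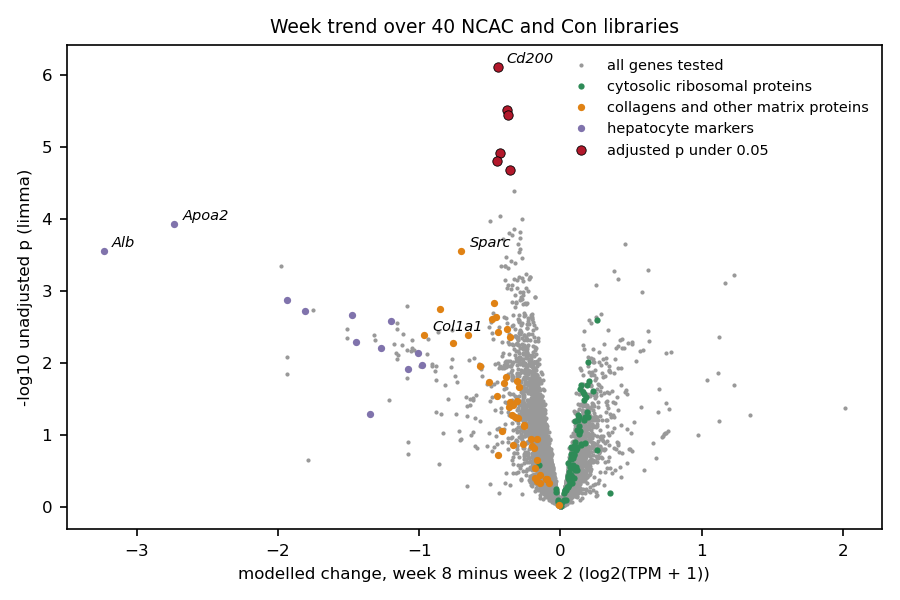
Modelled change between week 2 and week 8 (x axis, log2(TPM + 1)) against the unadjusted p of limma (y axis, -log10) for 10848 genes in 40 NCAC and Con libraries. Each point is a gene. The 6 genes past an adjusted p of 0.05 (red) all lie at small decreases, collagens and other matrix proteins (orange) lie left of 0, most cytosolic ribosomal proteins (green) lie just right of it, and hepatocyte markers (purple) lie far left.

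Libraries resembled each other closely. Spearman correlations between pairs of the 40 libraries lay between 0.933 and 0.989, and 0 columns were identical. The first principal component held 23.2% of the variance. Its coordinate followed the share of TPM from the 13 mitochondrially encoded genes with a Pearson r of 0.911 in size, as a description over 40 libraries whose shares sum to a fixed total. That share had a median of 45.9% at week 2, 47.5% at week 4, 47.8% at week 6 and 48.2% at week 8, and it was above 55% in 1 NCAC and 2 Con libraries. Con muscle held 3 libraries, 2 at week 2 and 1 at week 4, with over 100 TPM of Alb, the liver's main plasma protein. Without those 3 libraries, 9 of 10793 genes (0.0834%) passed, 1 higher and 8 lower, and 4 of them were among the 6: Cd200, Dpysl2, Prrg3 and Lrrc8c. Skeletal fibre identity was plain in all groups, with a mean of 32331 TPM for Acta1, the skeletal actin, and 9676 TPM for Ckm, muscle creatine kinase.

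Of the 6 genes that fell, Cd200 passed with the smallest adjusted p. It encodes a membrane glycoprotein of endothelial, neural and immune cells that binds a receptor on myeloid cells. Rgs5, a regulator of G-protein signalling that marks pericytes, was the most abundant of the 6, and Klhl23 encodes a Kelch-repeat protein of a family that hands substrates to a ubiquitin ligase. The RefSeq promoter windows of these 3 genes (GRCm38.p6, 250 bases before to 50 after the annotated start) are shown as examples of the 6, since they hold different sets of the motifs searched, with these motifs in capitals on either strand. The Cd200 window is chr16:45409004-45409303 on the minus strand, the Rgs5 window chr1:169655251-169655550 on the plus strand, and the first of 3 Klhl23 windows chr2:69821691-69821990 on the plus strand.
Cd200: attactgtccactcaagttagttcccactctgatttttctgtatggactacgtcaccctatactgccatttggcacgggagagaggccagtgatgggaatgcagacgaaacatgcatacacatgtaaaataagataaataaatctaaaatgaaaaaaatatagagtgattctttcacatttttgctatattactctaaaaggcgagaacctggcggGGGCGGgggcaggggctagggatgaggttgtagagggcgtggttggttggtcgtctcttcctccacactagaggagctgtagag
Rgs5: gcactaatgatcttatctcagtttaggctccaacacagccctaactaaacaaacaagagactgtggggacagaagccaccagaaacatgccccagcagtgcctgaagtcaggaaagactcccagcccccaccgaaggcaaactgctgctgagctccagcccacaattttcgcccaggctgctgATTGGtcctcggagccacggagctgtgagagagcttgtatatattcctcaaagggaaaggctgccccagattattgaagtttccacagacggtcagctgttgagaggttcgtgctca
Klhl23: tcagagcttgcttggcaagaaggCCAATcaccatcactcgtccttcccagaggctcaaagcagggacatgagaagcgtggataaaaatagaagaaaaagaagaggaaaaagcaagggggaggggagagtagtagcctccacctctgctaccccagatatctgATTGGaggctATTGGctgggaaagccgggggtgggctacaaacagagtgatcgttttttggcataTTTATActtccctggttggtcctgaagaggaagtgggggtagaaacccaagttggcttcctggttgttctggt

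The capitals mark GGGCGG in the Cd200 window, CCAAT read on the other strand (ATTGG) in the Rgs5 window, and in the Klhl23 window CCAAT once as written and 2 times as ATTGG, plus TATAAA read on the other strand (TTTATA). Of the 6 genes, 5 matched a RefSeq window, with 8 windows in all. GGGCGG was found in 5 of the 8 windows and in 35.7% of 32851 RefSeq promoters. CCAAT was found in 2 of the 8 and in 37.4% of all, TATAAA in 1 of the 8 and in 13.6% of all. CACGTG and TGACTCA were found in 0 of the 8 windows, and in 7.15% and 5.2% of all promoters. The 8 windows shared no single one of these 5 motifs, and a match in them is a description of letters only.

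Cd200 (ENSMUSG00000022661.14, GRCm38 chromosome 16, 45382135 to 45409053, minus strand) had a lowest, median and highest level of 17.7, 20.2 and 25.9 TPM at week 2 over the 10 NCAC and Con libraries. The same 3 values were 15.7, 17.6 and 24.8 TPM at week 4, 12.1, 16.5 and 20.8 TPM at week 6, and 11.3, 14.9 and 18.6 TPM at week 8. The medians step down at each time point, all 10 libraries of week 8 lie under the week 2 median, and 9 of them lie under the lowest library of week 2, so the weeks overlap by 1 library. The modelled change was -0.44 (SE 0.08, 95% interval -0.59 to -0.29, adjusted p 0.00844, limma), and the mean TPM of week 8 was 27.8% under that of week 2 (percent change -27.8). NCAC and Con muscle gave the same slope, -0.44 (SE 0.11) in NCAC and -0.44 (SE 0.11) in Con.

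Rgs5 (ENSMUSG00000026678.10, chromosome 1, 169655501 to 169695813, plus strand) stood at 149, 171 and 225 TPM (lowest, median, highest of 10) at week 2 and at 123, 150 and 183 TPM at week 4. It stood at 66.2, 141 and 155 TPM at week 6 and at 114, 126 and 153 TPM at week 8. Of the 10 week 8 libraries 8 were under the lowest of week 2, and the single low value of week 6 came from NCAC replicate 4, the library with the highest mitochondrially encoded share of the 40, 61.1%. The change was -0.45 (SE 0.09, adjusted p 0.0342, limma), with -0.47 (SE 0.13) in NCAC and -0.44 (SE 0.13) in Con. Its call was lost without the 3 Alb-rich libraries (change -0.43, adjusted p 0.0603). In bulk RNA, fewer pericytes and less Rgs5 RNA per pericyte cannot be told apart.

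The other 4 genes were less abundant, and each was named after its values were seen because the rule for named genes left it out. Dpysl2 (ENSMUSG00000022048.8, chromosome 14, 66802864 to 66868688, minus strand) encodes a cytoskeletal protein known from axon growth. Its median was 2.54 TPM at week 2, 2.08 at week 4, 1.99 at week 6 and 1.71 at week 8, with week 2 libraries at 1.59 to 3.92 TPM and week 8 libraries at 1.57 to 1.96 TPM. The narrowing at week 8 is as visible as the fall, and only 2 of the 10 week 8 libraries were under the lowest of week 2, which was 1 Con library. The change was -0.37 (SE 0.07, adjusted p 0.0130, limma). Prrg3 (ENSMUSG00000033361.13, chromosome X, 71962624 to 71972722, plus strand), a single-pass membrane protein with a vitamin K-dependent Gla domain, had medians of 1.98, 1.71, 1.27 and 1.28 TPM at weeks 2, 4, 6 and 8. Its medians of weeks 6 and 8 were level, and 8 of the 10 week 8 libraries lay under the lowest of week 2. The change was -0.38 (SE 0.07, adjusted p 0.0130, limma), with -0.50 (SE 0.10) in NCAC and -0.25 (SE 0.10) in Con.

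Klhl23 (ENSMUSG00000042155.3, chromosome 2, 69821944 to 69836651, plus strand) had medians of 6.88, 5.46, 5.19 and 4.61 TPM at weeks 2, 4, 6 and 8. Most of its difference lay between weeks 2 and 4, and 9 of the 10 week 8 libraries were under the lowest week 2 library, 5.77 TPM. The change was -0.43 (SE 0.09, adjusted p 0.0323, limma), and without the Alb-rich libraries it was -0.39 with an adjusted p of 0.101. Lrrc8c (ENSMUSG00000054720.12, chromosome 5, 105519388 to 105613018, plus strand), a subunit of the volume-regulated anion channel, had medians of 4.14, 3.72, 3.21 and 2.92 TPM. Its week 8 libraries reached from 2.47 to 3.74 TPM and its week 2 libraries from 3.14 to 5.29 TPM, an overlap of 4 libraries of week 8. The change was -0.36 (SE 0.08, adjusted p 0.0371, limma). When each library was left out in turn, Cd200, Dpysl2 and Prrg3 stayed called in all 40 fits, while Klhl23 lost its call in 11, Rgs5 in 12 and Lrrc8c in 18, with highest adjusted p of 0.0791, 0.0961 and 0.114.

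**Figure D2:**
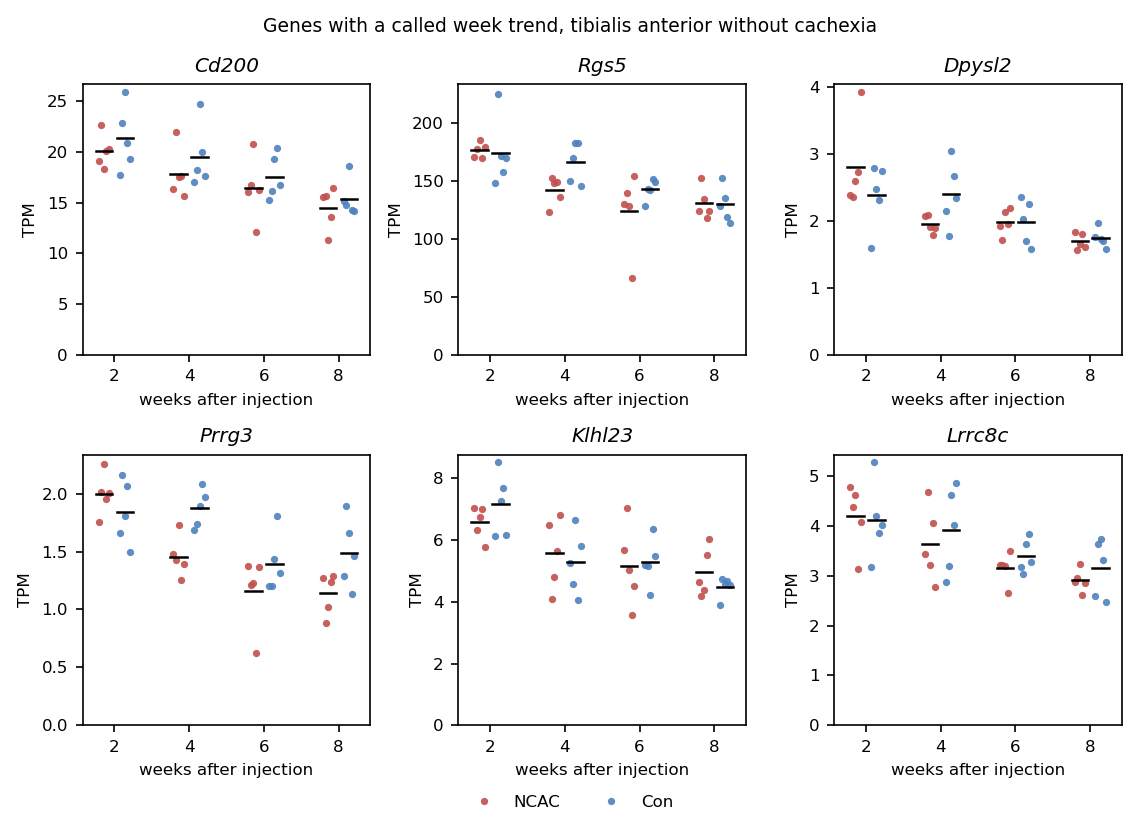
TPM (y axis) of the 6 genes with a called week trend at 2, 4, 6 and 8 weeks after injection (x axis). Points are libraries, 5 per group, with NCAC (red) left of Con (blue) at each week, and black bars are group means. Cd200 steps down at each week in both treatments, whereas Prrg3 is level between weeks 6 and 8 and 1 NCAC library at week 6 lies low for Rgs5 and Prrg3.

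The slopes of the 2 treatments share no libraries. In NCAC muscle 0 genes passed, 0% of those tested, with a smallest adjusted p of 0.0683 for Prrg3 (limma) and 581 genes at an unadjusted p under 0.05 (5.36%). In Con muscle 12 genes passed (0.111%, with 464 or 4.28% unadjusted), all lower, and all 12 are genes of the liver, described below. The 6 genes were called over both treatments together, so that their sign within each is largely fixed by that choice. Across the 10848 genes the NCAC and Con slopes had a Spearman correlation of 0.277 and a Pearson r of 0.219, as a description over genes that are not independent. The difference of the slopes, NCAC minus Con, was called for 0 genes (0%), with 218 at an unadjusted p under 0.05 (2.01%) and a smallest adjusted p of 0.966. For the 6 genes this difference ranged from -0.24 (Prrg3) to 0.16 (Klhl23).

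Set against CAC muscle, the call depended on the scale for 3 of the 6 genes. The difference of slopes, non-cachectic (mean of NCAC and Con) minus CAC, was called for 59.6% of all genes tested, 496 higher (4.57%) and 5973 lower (55.1%), with a median of -0.37 over all genes. After rescaling the median was 0.01 and 3901 genes were called, 2185 higher and 1716 lower. On the TPM scale a gene at the median of all genes thus has a negative difference. CAC libraries also varied more than the others, while the fit takes 1 spread for all.

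Lrrc8c and Klhl23 differed from CAC on both scales, in opposite directions. Lrrc8c averaged 2.91 ± 0.224 TPM in NCAC and 3.15 ± 0.589 TPM in Con at week 8 (SD, n = 5 each), and 13.9 ± 4.05 TPM in CAC (SD, n = 7). Its slope was -0.41 in NCAC and -0.31 in Con, and 1.41 in CAC, a difference of -1.77 (SE 0.20, adjusted p 1.26e-09, limma) that was -1.37 after rescaling (adjusted p 1.29e-07). Klhl23 had a steeper decrease in CAC (-0.94, SE 0.14), with a difference of 0.52 (adjusted p 0.0124) that was 0.84 after rescaling (adjusted p 0.000107).

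For Cd200, Dpysl2 and Rgs5 the call was lost on the rescaled values. Cd200 averaged 14.5 ± 2.07 TPM in NCAC and 15.4 ± 1.85 TPM in Con at week 8, and 21 ± 5.1 TPM in CAC. Its slope difference was -0.52 (adjusted p 0.00370), and -0.10 after rescaling (adjusted p 0.614). Dpysl2 gave -0.41 (adjusted p 0.00191), and -0.11 after rescaling (adjusted p 0.467). Rgs5 gave -0.38 (adjusted p 0.0393), and its sign turned to 0.06 after rescaling (adjusted p 0.766). For Prrg3 the CAC slope was -0.23 (SE 0.10), and the difference of -0.15 (SE 0.12) passed on neither scale, with 0.10 after rescaling.

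**Figure D3:**
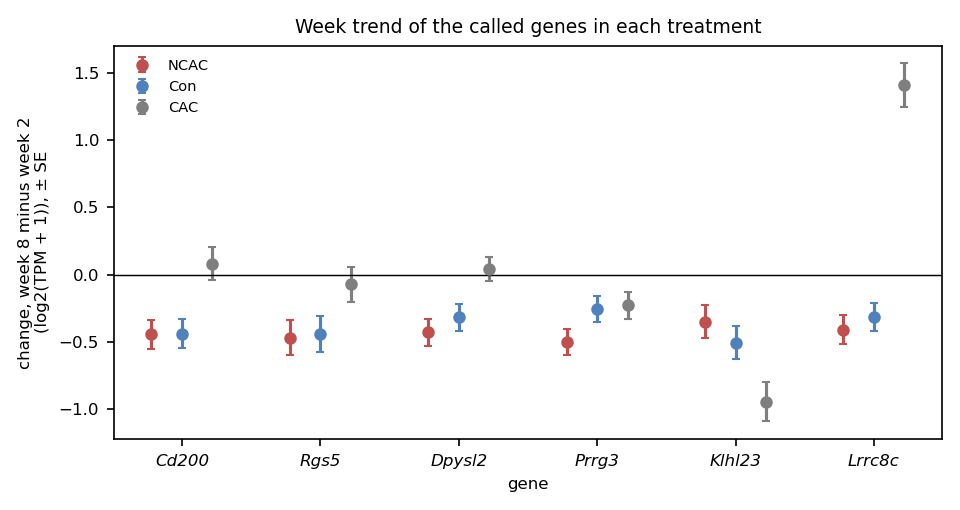
Modelled change between week 2 and week 8 (y axis, log2(TPM + 1)) of the 6 genes (x axis), with bars of ± 1 SE, in NCAC (red) and Con (blue) muscle and in CAC muscle (grey). NCAC and Con slopes are negative for each gene, and the CAC slope of Lrrc8c (1.41) and of Klhl23 (-0.94) lie away from them on opposite sides.

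Differences among weeks were also tested without assuming a line. A test for any difference among the 4 weeks called 7 genes (0.0645% of those tested, limma F-test), with 7.64% at an unadjusted p under 0.05. Cd200 and Prrg3 were among them, and the other 5 were Csrp3, Ankrd2, Fhl1, Myom3 and Dnaja4, each at an adjusted p of 0.0416. Csrp3 encodes muscle LIM protein and Ankrd2 an ankyrin-repeat protein, both of the Z-disc and titin region and known to respond to stretch. Fhl1 is a LIM-domain protein of the sarcomere, Myom3 is a myomesin of the M-band, and Dnaja4 is a co-chaperone of Hsp70. These 5 were also named after their values were seen.

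Csrp3 had a lowest, median and highest level of 10.6, 29.9 and 55.6 TPM at week 2, and of 36.2, 92.7 and 420 TPM at week 4. It had 13, 19.3 and 79.1 TPM at week 6, and 17.2, 136 and 379 TPM at week 8. Weeks 4 and 8 were thus high and weeks 2 and 6 low, with 7 of the 10 week 8 libraries above the highest of week 2 and 2 of them under the week 2 median. Both NCAC and Con muscle had higher means at weeks 4 and 8 than at weeks 2 and 6. Csrp3 was called over both treatments together, so that this likeness is in part fixed by that choice. The 4 weeks averaged 35.8, 132, 29.4 and 159 TPM in NCAC, and 24.1, 152, 29.5 and 154 TPM in Con.

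Ankrd2 had medians of 67.8, 190, 66.5 and 256 TPM at weeks 2, 4, 6 and 8, and its highest library, 1076 TPM, was at week 8. Fhl1, far more abundant, had medians of 995, 1520, 874 and 1790 TPM. Myom3 had medians of 4.02, 10, 3.57 and 12.1 TPM, and Dnaja4 had 49.4, 73.5, 46.2 and 71.3 TPM. All 5 genes share the order of low weeks 2 and 6 and high weeks 4 and 8, and in each the weeks overlap. Their straight-line changes did not pass, with values of 1.12 (SE 0.59) for Csrp3, 1.23 (SE 0.51) for Ankrd2, 0.38 (SE 0.26) for Fhl1, 0.77 (SE 0.37) for Myom3 and 0.29 (SE 0.18) for Dnaja4.

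The test of the departure from a straight line itself called 0 genes by limma (0%), with 584 at an unadjusted p under 0.05 (5.38%) and a smallest adjusted p of 0.0514. Dnaja4, Fhl1 and Csrp3 held that smallest adjusted p, and Ankrd2 and Myom3 had an adjusted p of 0.113. The call of any difference among weeks lay near the threshold: 0 genes passed in 24 of the 40 fits that left out 1 library, and 18 without NCAC replicate 5 of week 8. Over these fits the highest adjusted p was 0.0834 for Csrp3, Ankrd2 and Dnaja4 and 0.0956 for Fhl1 and Myom3 (limma F-test). The labels give no hour of collection, no handling record and no batch, and the part of such factors was not tested. Slopes of Csrp3 and Fhl1 differed from CAC muscle, by 2.69 (SE 1.13, adjusted p 0.0367, limma) and 1.42 (SE 0.53, adjusted p 0.0188), and passed on the rescaled values too. The slope differences of Ankrd2, Myom3 and Dnaja4 were not called, and such a difference was called for 59.6% of all genes tested. A slope leaves out the rise and fall between weeks.

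**Figure D4:**
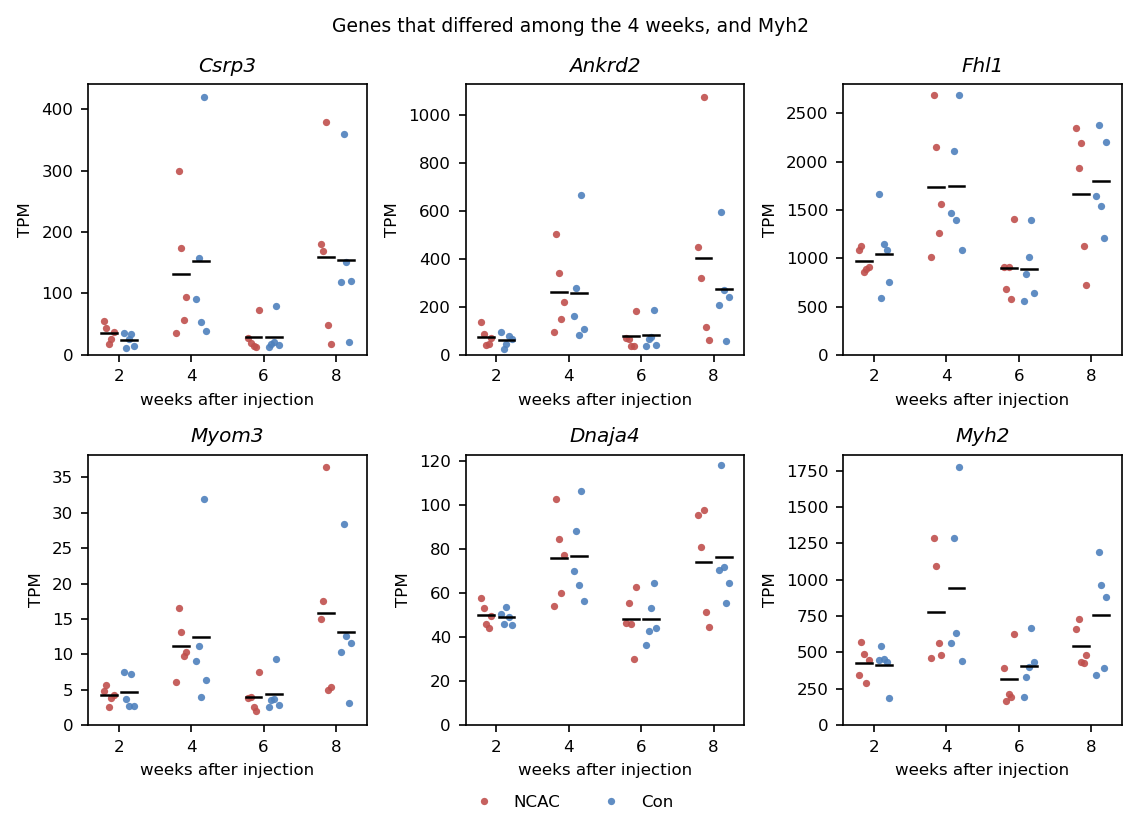
TPM (y axis) of Csrp3, Ankrd2, Fhl1, Myom3, Dnaja4 and Myh2 at 2, 4, 6 and 8 weeks after injection (x axis). Points are libraries, 5 per group, with NCAC (red) left of Con (blue), and black bars are group means. Means are low at weeks 2 and 6 and high at weeks 4 and 8 in both treatments, with a wide spread in the high weeks.

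Some heat shock genes had the same order of weeks without passing. Of 19 heat shock genes listed, 4 departed from a line at an unadjusted p under 0.05 (21.1%, against 5.38% of all genes), and 0 were called. Among them Hspb7, a small heat shock protein of muscle, had medians of 322, 587, 293 and 558 TPM at weeks 2, 4, 6 and 8. Cryab, the small heat shock protein that protects desmin and titin, had medians of 559, 901, 587 and 825 TPM, and Hspb6 had 545, 771, 585 and 779 TPM. The fast fibre genes as a list went another way, with 5 of 14 departing from a line (35.7%) and a median deviation of 0.09, -0.12, 0.04 and 0.01 at weeks 2, 4, 6 and 8, lowest at week 4. The slow fibre genes stood at 0.01, 0.09, -0.06 and -0.07 at the same weeks. Within the fast list Myh2, the myosin of fast oxidative fibres and 1 of the panel genes, had medians of 447, 599, 362 and 572 TPM, and neither its line (0.15, SE 0.32, adjusted p 0.999) nor the test among weeks (adjusted p 0.139) passed.

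Genes of mitochondrial fuel use had their highest list medians at week 4 over both treatments. Within each treatment this held too, except for the fatty acid list in Con. Of 26 genes of fatty acid uptake and oxidation, 17 departed from a line at an unadjusted p under 0.05 (65.4%), as did 10 of 21 genes of the tricarboxylic acid cycle (47.6%) and 30 of 71 nuclear genes of oxidative phosphorylation (42.3%), against 5.38% of all genes. None was called at an adjusted p under 0.05. The median member of the fatty acid list deviated from its mean by -0.11 at week 2, 0.13 at week 4, -0.01 at week 6 and -0.02 at week 8 on the log2 scale. In NCAC this median was -0.17, 0.21, -0.07 and 0.02 at weeks 2, 4, 6 and 8, and in Con -0.07, 0.06, 0.08 and -0.06, highest at week 6. All genes tested had medians of 0.02, 0.00, -0.02 and 0.00 at the same weeks. The tricarboxylic acid cycle list stood at 0.12 in NCAC and 0.06 in Con at week 4. The oxidative phosphorylation list stood at 0.08 in NCAC and 0.07 in Con at that week. Etfb, which carries electrons from fat oxidation, had medians of 256, 298, 277 and 262 TPM at weeks 2, 4, 6 and 8. Eci1, an isomerase needed for unsaturated fats, had medians of 168, 224, 187 and 191 TPM. The within-group SD on the log2 scale was 0.11 for Etfb and 0.22 for Eci1. Pdk4, which turns fuel use away from glucose, had medians of 209, 416, 377 and 356 TPM, a line change of 0.78 (SE 0.27, adjusted p 0.326, limma), and Ucp3 one of 0.53 (SE 0.20, adjusted p 0.342).

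Connective tissue genes leaned down over weeks without a call. Of 19 collagen genes listed, 18 were tested, all 18 had a negative change with a median of -0.35, and 10 were lower at an unadjusted p under 0.05 (55.6%, against 6.75% of all genes). Of 30 other matrix proteins 27 were tested, all negative with a median of -0.30, and 12 were lower (44.4%). Of 18 enzymes that fold and crosslink collagen, 7 were lower (38.9%, median -0.13). No member of these lists passed at an adjusted p under 0.05, and the median of all genes was -0.02.

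Col1a1, the main chain of type I collagen, had a lowest, median and highest level of 11, 34.3 and 81.1 TPM at week 2, and of 16.5, 26.5 and 54.1 TPM at week 4. It had 4.64, 21.7 and 42.2 TPM at week 6, and 7.37, 15 and 46.3 TPM at week 8. The weeks overlap widely, and the change was -0.96 (SE 0.32, 95% interval -1.60 to -0.32, adjusted p 0.29, limma). Col3a1, of type III collagen, had medians of 39.6, 31.4, 18 and 23.6 TPM and a change of -0.86 (SE 0.26, adjusted p 0.249). Sparc, a matrix protein that binds collagen, had medians of 163, 150, 111 and 108 TPM and a change of -0.70 (SE 0.18, adjusted p 0.134), which passed after rescaling (-0.66, adjusted p 0.0345). Col4a1 of the basement membrane changed by -0.57 (SE 0.21, adjusted p 0.342) and Serpinh1, the collagen chaperone, by -0.41 (SE 0.15, adjusted p 0.341), and neither passed.

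By median deviation, which week was lowest for the collagens depended on 1 library in NCAC muscle only. Over both treatments their median deviation was 0.19 at week 2, 0.16 at week 4, -0.27 at week 6 and -0.08 at week 8. It was -0.22 in NCAC and -0.28 in Con at week 6, and -0.09 in NCAC and -0.08 in Con at week 8. The low value of NCAC at week 6 rests on replicate 4, the library with 61.1% mitochondrially encoded, which held 4.64 TPM of Col1a1 and 4.5 TPM of Col3a1. Without it, the NCAC deviation was -0.03 at week 6 and -0.17 at week 8. Over both treatments week 6 stayed the lowest without that library, at -0.16 against -0.11 at week 8. The summed TPM of the collagens had medians of 221 in NCAC and 162 in Con at week 6, and of 181 in NCAC and 203 in Con at week 8, so that NCAC was lowest at week 8 and Con at week 6. In CAC muscle Col1a1 and Col3a1 had slopes of -1.35 (SE 0.44) and -1.22 (SE 0.35), and the differences from non-cachectic muscle, 0.39 (SE 0.55) and 0.36 (SE 0.44), did not pass. A lower collagen RNA over these weeks was measured in all 3 treatments. It was called in CAC (adjusted p 0.00584 for Col1a1 and 0.00221 for Col3a1, limma) and not called in the 40 other libraries. An adjusted p also depends on how many other genes change in the same fit, so these calls do not set the treatments apart.

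Markers of the cells that make and line this tissue had negative medians over both treatments, and for fibroblast and tendon markers the median was near 0 in Con. The difference between the treatments was not tested for these lists. Of 10 pericyte and smooth muscle markers 9 were tested, all negative with a median of -0.34. Rgs5 was called, and 6 were lower at an unadjusted p under 0.05 (66.7%, against 6.75% of all genes). Myh11, the smooth muscle myosin, had medians of 13.6, 11.3, 13.6 and 9.31 TPM at weeks 2, 4, 6 and 8 (change -0.49, SE 0.16, adjusted p 0.288), and Pdgfrb, the receptor that recruits pericytes, had 15.3, 13.5, 12.7 and 11.5 TPM (change -0.37, SE 0.13, adjusted p 0.303). Of 12 fibroblast markers 4 were lower (33.3%, median -0.20), against the same 6.75% of all genes. Col1a1, Col3a1, Dcn, Lum and Mfap5 are in this list and also in the collagen or other matrix lists, so its count is not separate from theirs. Of 12 endothelial markers 3 were lower (25%, median -0.13), of 8 nerve sheath markers 2 (25%, median -0.18) and of 7 tendon markers 2 (28.6%, median -0.24). The fibroblast median was -0.42 in NCAC and -0.02 in Con, and the tendon median -0.51 in NCAC and 0.04 in Con. The pericyte median was -0.32 in NCAC and -0.34 in Con, and the endothelial median -0.12 in NCAC and -0.20 in Con. The 10 fibre markers had a median of -0.01, and 0 of them passed even unadjusted. The share of these cell types in the muscle was not measured, and its part in the collagen values was not tested.

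**Figure D5:**
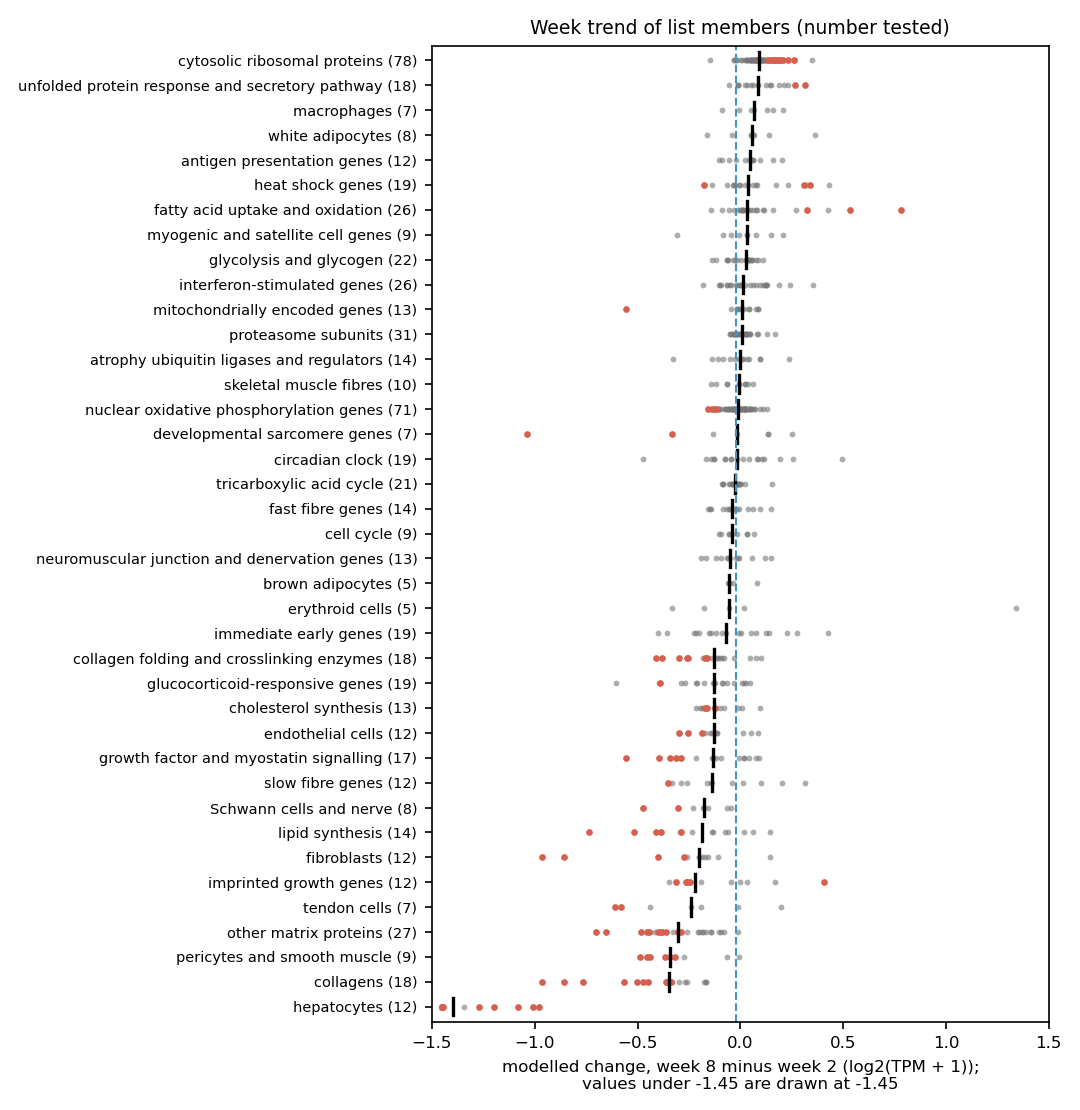
Modelled change between week 2 and week 8 (x axis, log2(TPM + 1)) of the members of each list with at least 5 genes tested (y axis, number tested in brackets). Points are genes, red where the unadjusted p was under 0.05, black bars are list medians, values beyond the left edge are drawn at it, and the dashed line is the median of all genes (-0.02). Hepatocyte markers, collagens, pericyte markers and other matrix proteins lie furthest left and cytosolic ribosomal proteins furthest right.

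Growth and lipid genes gave a few values of similar size. Igf1, the growth factor that muscle makes for itself, had medians of 1.89, 1.53, 1.2 and 1.31 TPM at weeks 2, 4, 6 and 8 and a change of -0.40 (SE 0.10, adjusted p 0.158, limma). Of 17 genes of growth factor and myostatin signalling 5 were lower at an unadjusted p under 0.05 (29.4%, against 6.75% of all genes), among them Igfbp5 (-0.56, SE 0.22, adjusted p 0.387). Mstn, the inhibitor of muscle growth, had medians of 21.6, 16, 17.2 and 18.9 TPM and a change of -0.13 (SE 0.20, adjusted p 0.999). Of 14 genes of lipid synthesis 5 were lower (35.7%, median -0.19). Elovl5, a fatty acid elongase, had medians of 6.88, 6.51, 6.18 and 5.46 TPM and a change of -0.29 (SE 0.07, adjusted p 0.134), and Scd1, the main desaturase, changed by -0.74 (SE 0.30, adjusted p 0.414). Of 12 imprinted growth genes, some of which are high before birth and decline after it, 4 were lower (33.3%, against 6.75% of all genes). In this list 1 was higher (8.33%, against 1.6%), and the median was -0.22. Dcn is also in the other matrix and fibroblast lists and Igf2 in the growth factor list, so these lists are not separate. Of 13 genes of cholesterol synthesis 3 were lower (23.1%, median -0.13).

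Cytosolic ribosomal proteins leaned the other way by a small amount. Of 78 tested, 73 had a positive change and 12 were higher at an unadjusted p under 0.05 (15.4%, against 1.6% of all genes), with a median of 0.09 and no call. Rpl38 had medians of 217, 248, 249 and 275 TPM at weeks 2, 4, 6 and 8 and a change of 0.26 (SE 0.08, adjusted p 0.263). These genes have many near-identical pseudogenes, so their TPM depend on how shared reads were divided. Rps26, with within-group SD 1.88 on the log2 scale, ranged from 0.48 to 412 TPM at week 2 and from 0.0939 to 458 TPM at week 8, and its change was 0.35 (SE 0.75).

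Genes that are prominent in wasting had no called trend in muscle without cachexia. Trim63, the muscle ubiquitin ligase MuRF1, had medians of 123, 138, 127 and 134 TPM at weeks 2, 4, 6 and 8 and a change of 0.01 (95% interval -0.25 to 0.27). Its slope differed from that of CAC muscle by -2.14 (SE 0.60, adjusted p 0.00239, limma), and by -1.70 after rescaling (adjusted p 0.0181). Fbxo32, the ligase atrogin-1, had medians of 63.3, 74, 80.2 and 73 TPM and a change of 0.24 (95% interval -0.15 to 0.62), with a slope difference from CAC of -1.46 (SE 0.61, adjusted p 0.0346) that was lost after rescaling (-1.02, adjusted p 0.165). Of 14 atrophy genes, 31 proteasome subunits, 22 genes of glycolysis and glycogen, 26 interferon-stimulated genes, 13 genes of the neuromuscular junction and 9 cell cycle genes, 0 passed in either direction even unadjusted. Over all genes tested 1.6% were higher and 6.75% lower unadjusted, and these short lists were not tested against that share. The interferon-stimulated list had a median change of -0.20 in NCAC and 0.24 in Con, and this difference was not tested for the list. Of 19 glucocorticoid-responsive genes 1 was lower unadjusted (5.26%) and 15 had a negative change, with a median of -0.13. Myh4, the myosin of the fastest fibres, had medians of 9222, 7236, 8691 and 9085 TPM and a change of 0.04 (95% interval -0.37 to 0.45). Dbp, an output gene of the circadian clock, had medians of 72.5, 59, 76.6 and 80.7 TPM and a change of 0.19 (95% interval -0.16 to 0.55), and 0 of 19 clock genes passed unadjusted.

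Liver transcripts were present in a few muscles of Con mice and made up every call in that group. Alb had values of 0.0191 to 5.96 TPM in NCAC and 1.37 to 1196 TPM in Con at week 2. It had 0.106 to 10.5 TPM in NCAC and 0 to 142 TPM in Con at week 4, and no NCAC or Con library was above 2.06 TPM at weeks 6 and 8. The week 2 Con muscles of replicates 1 and 2 held 1196 and 194 TPM, and the week 4 Con muscle of replicate 3 held 142 TPM. The Con slope of Alb was -5.66 (SE 1.03, adjusted p 0.013, limma) and that of Apoa2, an apolipoprotein, -4.73 (SE 0.81, adjusted p 0.00758), whereas the NCAC slopes were -0.81 (SE 1.03) and -0.74 (SE 0.81). The differences of 4.85 and 3.99 did not pass over all genes (smallest adjusted p 0.966).

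The 12 genes called in Con were Alb, Apoa1, Apoa2, Apoc1, Apoc3, Fabp1, Ahsg, Serpina1a, Gc, Hamp, Cyp3a41a and Hpd, of which Serpina1a and Cyp3a41a have close paralogues. Without the 3 libraries above 100 TPM of Alb, 0 genes were called in Con. The 15 hepatocyte markers summed to 1.80 to 16.5 TPM in NCAC and 6.87 to 2676 TPM in Con at week 2, and to 1.16 to 58.6 TPM in NCAC and 1.01 to 2.60 TPM in Con at week 8. Alb was listed at 0 in 7 of the 40 libraries and Apoa1 in 19. The high values are those of single muscles, and how the transcripts came into those libraries was not tested.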

How the data were processed

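The authors deposited 1 table of TPM with 47643 gene symbols and a column for each of 62 libraries, all matched to samples by title, 0 unmapped. Per the labels' protocols, replicates are biological and libraries were stranded mRNA, read on a NovaSeq. Per the submitters' processing notes, reads were placed on mm10. The aligner, the counter and the annotation were not given in the sources used here. TPM fixes each library's total, so a change in abundant transcripts moves all other values.

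Of 22365 genes above 0 in the 40 libraries, 10848 had a mean of at least 1 TPM and were tested. Values were transformed as log2(TPM + 1), so that changes of low genes are understated, and fitted with limma 3.58.1 in R 4.3.3 (empirical Bayes with trend, residual degrees of freedom 37), with week coded so that its coefficient is the change between weeks 2 and 8. Calls need an adjusted p (Benjamini-Hochberg, over all genes tested) under 0.05. Slopes by treatment, their difference, any difference among weeks and the departure from a line came from the same 40 libraries, and the difference from CAC from all 62. Every test is two-sided. The model was tested on simulated data.

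TPM keeps no depth. Whole-read steps of low TPM, from GENCODE M21 gene lengths, gave estimated depths that differed little between libraries (46.4 to 54.1, median 48.8, in units of M reads), with 82.7 to 84.8% of low values whole within 0.05 reads. This is a guide only and no count test was run.

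Named genes are those called, with and without libraries above 100 TPM of Alb, with at least 5 TPM in a week (the 10 largest changes each way), called members of 48 lists, and a panel of 10 genes. This yields Cd200, Rgs5 and the panel. Other called genes were named after their values were seen. Uncalled genes outside the panel, such as Sparc, Hspb7 and Col4a1, also lie outside this rule and are examples only. The 40 libraries, the lists and the tests were chosen with earlier results of these data known. Replicate numbers did not pair the libraries: same-numbered libraries of different groups correlated in their deviations at a median of -0.03. The alternatives: no filter, a pseudocount of 0.1, size factors by median of ratios, omission of the mitochondrially encoded genes, of Alb-rich libraries, of each week and of each library, week 8 against week 2 alone, the replicate number as a block, 1 spread for all 62 libraries, and, chosen after seeing the data, omission of the libraries above 55% mitochondrially encoded. Python 3.11.15 with pandas 2.3.3, numpy 2.4.6 and matplotlib 3.10.9 was used for promoters, depth and plots.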

Additional observations from a re-analysis of the deposited data

Results flagged for a closer look

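Single libraries stood apart from the other 4 of their group in 19 of 176 groups of values examined for the 21 genes of the rule, panel and calls and the mitochondrially encoded share. The limits used flag about 1 in 20 groups of independent, normally distributed values. Some of these TPM are skewed, as for Alb, and some genes share an outlying muscle. The 19 of 176 can thus not be set against that rate. Among the genes with a called trend, Klhl23 was at 3.9 TPM in Con replicate 1 at week 8 (the other 4 libraries at 4.56 to 4.75), Cd200 at 18.6 TPM in Con replicate 3 at week 8 (14.2 to 15.2), Dpysl2 at 3.92 TPM in NCAC replicate 5 at week 2 (2.36 to 2.73) and Prrg3 at 0.627 TPM in NCAC replicate 4 at week 6 (1.21 to 1.38).

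At week 6 the high values of the stretch-linked genes came from 1 muscle in each treatment. Csrp3 was at 72.5 TPM in NCAC replicate 5 (13 to 27.7) and at 79.1 TPM in Con replicate 4 (13.4 to 20.7), and Ankrd2 was at 184 TPM (36.3 to 71.6) and 189 TPM (37.4 to 72.8) in the same 2 muscles. Myom3 was at 9.4 TPM in that Con muscle (2.63 to 3.64) and at 31.9 TPM in Con replicate 4 of week 4 (3.97 to 11.2). Dnaja4 was at 118 TPM in Con replicate 2 of week 8 (55.7 to 71.9). Among the panel genes, Alb was at 10.5 TPM in NCAC replicate 4 of week 4 (0.106 to 0.203), at 1196 TPM in Con replicate 1 of week 2 (1.37 to 194) and at 142 TPM in Con replicate 3 of week 4 (0 to 1.42). Col1a1 was at 46.3 TPM (8.57 to 17.8) and Igf1 at 2.09 TPM (1.2 to 1.4) in NCAC replicate 5 of week 8, and Col3a1 was at 42.5 TPM in Con replicate 2 of week 8 (17.1 to 24.1). The mitochondrially encoded share was 51.1% in NCAC replicate 2 of week 2 (45.1 to 46.2%) and 52.6% in NCAC replicate 3 of week 4 (46.7 to 48.3%).

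Week trends that differed between non-cachectic and CAC muscle by the test of the difference were those of Lrrc8c (-1.77), Cd200 (-0.52), Dpysl2 (-0.41), Rgs5 (-0.38), Klhl23 (0.52), Csrp3 (2.69), Fhl1 (1.42), Trim63 (-2.14), Fbxo32 (-1.46), Mstn (-1.13), Igf1 (-0.55), Myh2 (1.88) and Dbp (1.62), each as non-cachectic minus CAC on the log2(TPM + 1) scale. Such a difference was called for 59.6% of all genes tested, with a median of -0.37. After rescaling, Cd200 (-0.10), Dpysl2 (-0.11), Rgs5 (0.06), Fbxo32 (-1.02), Mstn (-0.70) and Igf1 (-0.27) were no longer called, whereas Lrrc8c (-1.37), Klhl23 (0.84), Csrp3 (3.11), Fhl1 (1.87), Trim63 (-1.70), Myh2 (2.32) and Dbp (2.04) were.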

How the results depend on the processing

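Over 22 week slopes of single genes and 1143 settings, 791 kept their side of the threshold, 350 lost it, 2 gained it and 0 changed sign. For the 5 genes called only for a difference among weeks, which has no direction, 79 of 260 settings kept the call and 181 lost it. For the main trend 0 genes were called without week 2 and 0 without week 8. These fits have fewer libraries over a shorter span, so they cannot show where in the series the 6 trends arise. The count of the main trend was 3 with no filter on low values, 23 after rescaling, 31 without the mitochondrially encoded genes (4 higher, 27 lower), 3 for week 8 against week 2 alone, 3 with 1 spread for all 62 libraries, 3 without week 4 and 10 without the libraries above 55% mitochondrially encoded (2 higher, 8 lower). Leaving out 1 library gave 3 to 13 genes. The highest came without Con replicate 5 of week 2, and 3 without Con replicate 3 of week 2, Con replicates 1 and 5 of week 8, NCAC replicates 1, 2 and 3 of week 2 or NCAC replicate 1 of week 8.

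In Con the count was 40 with a pseudocount of 0.1, 1 with no filter, 57 without the mitochondrially encoded genes, 0 without the Alb-rich libraries, 46 with 1 spread, 29 without week 4, 0 without week 2, 6 or 8, 0 without the libraries above 55%, and 0 to 51 with 1 library left out. In NCAC it was 1 after rescaling, 1 where genes encoded in mitochondria were omitted, 1 without the libraries above 55%, and 0 to 1 with 1 library left out. The difference NCAC minus Con stayed at 0, also with 1 library left out (0 to 0). For any difference among weeks it was 0 with no filter, 32 after rescaling, 11 without the Alb-rich libraries, 0 with 1 spread, 0 without week 2, 4 or 8, 4 without week 6, 3 without the libraries above 55%, and 0 to 18 with 1 library left out. For the departure from a line it was 4 with a pseudocount of 0.1, 7 without week 8, and 0 to 12 with 1 library left out. The difference from CAC was called for 3901 genes after rescaling, 3409 without week 2, 4122 without week 8, and 6219 to 6864 with 1 library left out. The cause of these moves was not tested.

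With the replicate number as a block the main trend had 5 calls, Con 2 and any difference among weeks 0. Only 4 libraries correlated best with their own number, so the samples share only a number. Depth is only estimated, so what it limits is unknown. Differences from CAC lost their call on the rescaled values for Cd200, Dpysl2, Rgs5, Fbxo32, Mstn and Igf1. Without NCAC replicate 4 of week 6, a setting chosen after seeing the data, the collagen deviation of NCAC at week 6 was -0.03.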

Other observations

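The most variable values within a group belonged to genes with and without a call. Alb (SD 1.77, log2 scale) was called in Con, and Csrp3 (SD 1.19) was called among weeks. The within-group SD on the log2(TPM + 1) scale had a median of 0.20 over all genes tested and was under 0.3 for 85.0% of them. Myh8, the perinatal myosin, had an SD of 1.73, with week 2 libraries at 1.31 to 144 TPM and week 8 libraries at 1.06 to 99.3 TPM, and a change of 0.25 (SE 0.68).

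Markers of blood-borne cells gave values without a call. Of 8 neutrophil markers 2 were tested, and both were higher at an unadjusted p under 0.05 (1.6% of all genes were), with a median change of 0.93 in NCAC and 0.13 in Con. S100a9, a calcium-binding protein of neutrophils, had medians of 1.78, 2.46, 2.82 and 3.82 TPM at weeks 2, 4, 6 and 8 (change 0.56, SE 0.20, adjusted p 0.323, limma). Igkc, the constant region of the immunoglobulin kappa chain, reached 68.7 TPM in 1 Con library of week 8 against a median of 1.68 TPM at that week (change 1.04, SE 0.42, adjusted p 0.404). Of 10 B and plasma cell markers 3 were tested. Of these, 2 were higher at an unadjusted p under 0.05 (66.7%) and 1 had a negative change (-0.63). The summed TPM of the 10 markers had medians of 101 at week 2 and 50.2 at week 8 in NCAC. In Con these medians were 80.1 and 66.9. Actc1, the cardiac actin that skeletal muscle makes early in life, had medians of 208, 170, 87.1 and 63.3 TPM (change -1.04, SE 0.36, adjusted p 0.316), and its slope was less steep than in CAC muscle by 1.91 (SE 0.62, adjusted p 0.00739).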
